A study of Mus musculus with 20 samples.

Results

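Tnik, Gpr160, Gnb4, Nudt6 and Ankrd50 are 5 genes on mouse chromosome 3 whose RNA in microglia differed between mThy1-α-synuclein mice and wild-type mice at both ages of the study. They were chosen from 24062 genes in the table because they passed the test between genotypes at 7 and at 10 months and start between 28 and 39 Mb of the mm10 genome. The genotype differences that chose them are therefore given below as a description, with no test. RNA came from microglia of 20 male mice, with 1 brain in each sample. At 7 months there were 6 mThy1-α-synuclein mice (called α-synuclein mice here) and 4 wild-type mice, and at 10 months 5 of each. The α-synuclein mice carry human α-synuclein under the Thy1 promoter, which is active mainly in neurons, so the transgene is not driven by a microglial promoter. The labels give HEM as their genotype, and both genotypes have the strain label B6D2F1/J. B6D2F1/J is the cross of the C57BL/6J and DBA/2J strains, so mice bred from it can carry different alleles at the same place in the genome. Microglia were taken with CD11b beads by the methods of the study, while the labels speak of IBA1 selection and give brain homogenate as the tissue. By the methods of the study the inserted human gene is on the X chromosome, and the wild-type controls were littermates. Alleles on chromosome 3 were not measured in these files, so allele differences there and regulation of these genes cannot be told apart. Mice of each age were processed together, so age and processing cannot be told apart either.

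Between 33404096 and 77806399 reads were counted on genes per mouse, and the values are reads divided by a size factor for each mouse, called normalized counts. Averaged over genes, counting noise was small beside the differences between mice of a group, which does not speak for genes with few reads. The microglial markers Cx3cr1 and P2ry12 had mean levels of 278022 and 298774 normalized counts in wild-type mice at 7 months. The genotype labels held in every mouse. Thy1, which the transgene cassette can add reads to, lay between 392 and 1741 in α-synuclein mice and between 9.41 and 47.6 in wild-type mice.

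The 5 genes work in different parts of the cell. Tnik encodes a germinal centre kinase of the MAP4K family that activates Wnt target transcription with TCF7L2 and is also found at synapses. Gpr160 encodes an orphan G protein-coupled receptor, and Gnb4 encodes a β subunit of heterotrimeric G proteins, which carry signals from such receptors. Microglia sense nucleotides, chemokines and complement fragments through these receptors. Nudt6 encodes a Nudix hydrolase and is transcribed antisense to Fgf2, the gene for a fibroblast growth factor. Ankrd50 encodes an ankyrin repeat protein that acts with SNX27 and retromer to return membrane proteins from endosomes to the cell surface.

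The genes are spread over the interval and are not neighbours of each other. In GENCODE M21 (mm10), Tnik lies at chr3:28263214-28675858 on the plus strand and Gpr160 at chr3:30855950-30897192, also on the plus strand. Gnb4 lies at chr3:32580332-32616585, Nudt6 at chr3:37404910-37420211 and Ankrd50 at chr3:38449259-38484844, all on the minus strand. Nudt6 shares 5199 bases with Fgf2 and 316 bases with Spata5, both on the opposite strand. The strand setting of the counting is not given in the sources used here, so reads in these shared stretches cannot be assigned to either gene with certainty.

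Promoter windows of 300 bases from RefSeq (GRCm38.p6), running from 250 bases before to 50 bases after the start, matched 3 of the 5 genes. Those of Gpr160 (chr3:30855700-30855999, plus strand), Nudt6 (chr3:37419547-37419846, minus strand) and Ankrd50 (chr3:38484801-38485100, minus strand, 1 of its 2 windows) are shown because only these 3 had a window. The window of Cetn4 (chr3:37312397-37312696, minus strand), a gene close to Nudt6, is shown because its level was strongly related to those of Gnb4 (inversely), Nudt6 and Gpr160 in wild-type mice. Capitals mark the GC box, GGGCGG on either strand, with overlapping matches counted apart.
Gpr160: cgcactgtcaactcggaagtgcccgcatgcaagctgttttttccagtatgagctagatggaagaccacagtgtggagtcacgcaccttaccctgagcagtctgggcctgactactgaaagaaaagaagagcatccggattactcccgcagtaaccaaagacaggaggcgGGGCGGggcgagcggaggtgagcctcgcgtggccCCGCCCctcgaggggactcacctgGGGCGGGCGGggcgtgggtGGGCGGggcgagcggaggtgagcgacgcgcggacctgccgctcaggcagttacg
Nudt6: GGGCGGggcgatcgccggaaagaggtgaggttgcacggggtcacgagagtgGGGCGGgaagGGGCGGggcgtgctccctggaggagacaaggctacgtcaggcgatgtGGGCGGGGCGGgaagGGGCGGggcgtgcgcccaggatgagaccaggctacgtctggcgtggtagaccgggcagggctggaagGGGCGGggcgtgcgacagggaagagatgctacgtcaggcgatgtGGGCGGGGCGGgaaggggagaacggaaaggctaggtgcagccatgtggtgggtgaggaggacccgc
Ankrd50: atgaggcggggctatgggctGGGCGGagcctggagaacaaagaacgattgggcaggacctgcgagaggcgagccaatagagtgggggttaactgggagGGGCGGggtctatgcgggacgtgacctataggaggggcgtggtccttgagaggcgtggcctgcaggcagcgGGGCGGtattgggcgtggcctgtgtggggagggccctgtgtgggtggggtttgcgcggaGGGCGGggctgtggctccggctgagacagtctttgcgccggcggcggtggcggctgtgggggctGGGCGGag
Cetn4: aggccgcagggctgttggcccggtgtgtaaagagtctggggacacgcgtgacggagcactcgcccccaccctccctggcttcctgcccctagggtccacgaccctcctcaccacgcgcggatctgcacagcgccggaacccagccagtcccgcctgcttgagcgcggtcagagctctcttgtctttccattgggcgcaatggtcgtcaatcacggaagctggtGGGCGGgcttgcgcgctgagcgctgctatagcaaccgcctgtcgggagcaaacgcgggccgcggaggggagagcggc
The Gpr160 window held 5 matches, Nudt6 9, Ankrd50 5 and Cetn4 1. The windows of Fgf2 and Bbs12, which are not shown, held 1 each. Of 32851 promoter windows, 35.7% held a match and 10.7% held 3 or more. The share of G and C was 64.3%, 70.3%, 69.0% and 67.7% in Gpr160, Nudt6, Ankrd50 and Cetn4, and the median of all windows was 52.7%. These letters are a description of the windows and say nothing of binding in these cells. Tnik and Gnb4 had no window in the table.

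Gnb4 differed most. In the 7-month α-synuclein mice it had 13.4, 13.3, 33.4, 50.1, 109 and 37.6 normalized counts, and in the wild-type mice 1248, 576, 1218 and 494. At 10 months the α-synuclein mice had 34.7, 31.9, 24.6, 15.6 and 15.1, against 678, 512, 578, 633 and 979 in wild-type mice. The highest α-synuclein mouse stood far below the lowest wild-type mouse at both ages. The means were 42.7 ± 35.3 (SD, n = 6) and 884 ± 405 (SD, n = 4) at 7 months, and 24.4 ± 9.05 and 676 ± 180.4 (SD, n = 5 each) at 10 months. On the log2(value + 1) scale Gnb4 was lower by 23.9-fold at 7 months (log2 fold change −4.58 ± 0.57, SE) and by 27.5-fold at 10 months (−4.78 ± 0.26).

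Tnik, the kinase, was also lower. The 7-month α-synuclein mice had 20.2, 24.5, 45.6, 28, 50.8 and 59.4 normalized counts, and the wild-type mice 139, 152, 119 and 137. The 10-month values were 54.3, 41.5, 32.1, 29.2 and 39.1 against 148, 97.1, 129, 113 and 134. The groups did not overlap at either age, and the log2 fold change was −1.92 ± 0.33 (3.79-fold lower) at 7 months and −1.66 ± 0.23 (3.15-fold lower) at 10 months. Even in wild-type mice Tnik was sparse in this RNA, with a mean of 6.85 ± 0.67 (SD, n = 4) normalized counts per kb of exon at 7 months.

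Gpr160, the receptor, was higher. In the α-synuclein mice it had 1997, 2352, 2693, 1736, 2030.3 and 2215 normalized counts at 7 months, and 1922, 1877, 1779.6, 1840.2 and 2160.3 at 10 months. The wild-type mice had 786, 1151, 855 and 1050.4 at 7 months, and 836, 909, 969, 1171 and 716 at 10 months. Every α-synuclein mouse was above every wild-type mouse of either age. The log2 fold change was 1.18 ± 0.13 (2.26-fold) and 1.07 ± 0.11 (2.10-fold).

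Nudt6 followed the same direction with a smaller gap. The 7-month values were 376, 393, 381, 259, 333 and 402 in α-synuclein mice and 147, 239, 176 and 248 in wild-type mice. The 10-month values were 335, 365, 391, 277 and 313 against 144, 198, 199, 195 and 149. At 7 months the lowest α-synuclein mouse (259) was only just above the highest wild-type mouse (248), whereas the gap was wider at 10 months. The log2 fold change was 0.84 ± 0.18 (1.78-fold) at 7 months and 0.93 ± 0.15 (1.90-fold) at 10 months.

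Ankrd50, the endosomal recycling gene, had the smallest difference of the 5. It had 1376, 1289, 1363, 1275, 1185 and 1389 normalized counts in α-synuclein mice at 7 months and 935, 877, 952 and 1148 in wild-type mice. At 10 months it had 1145, 1206, 1058, 906 and 1143 against 692, 839, 801, 895 and 645. The groups touched closely at both ages without overlapping. The log2 fold change was 0.43 ± 0.09 (1.35-fold) and 0.50 ± 0.11 (1.41-fold). All 5 genes had at least 10 normalized counts in every mouse, so the filter on low values removed none of them.

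**Figure D1:**
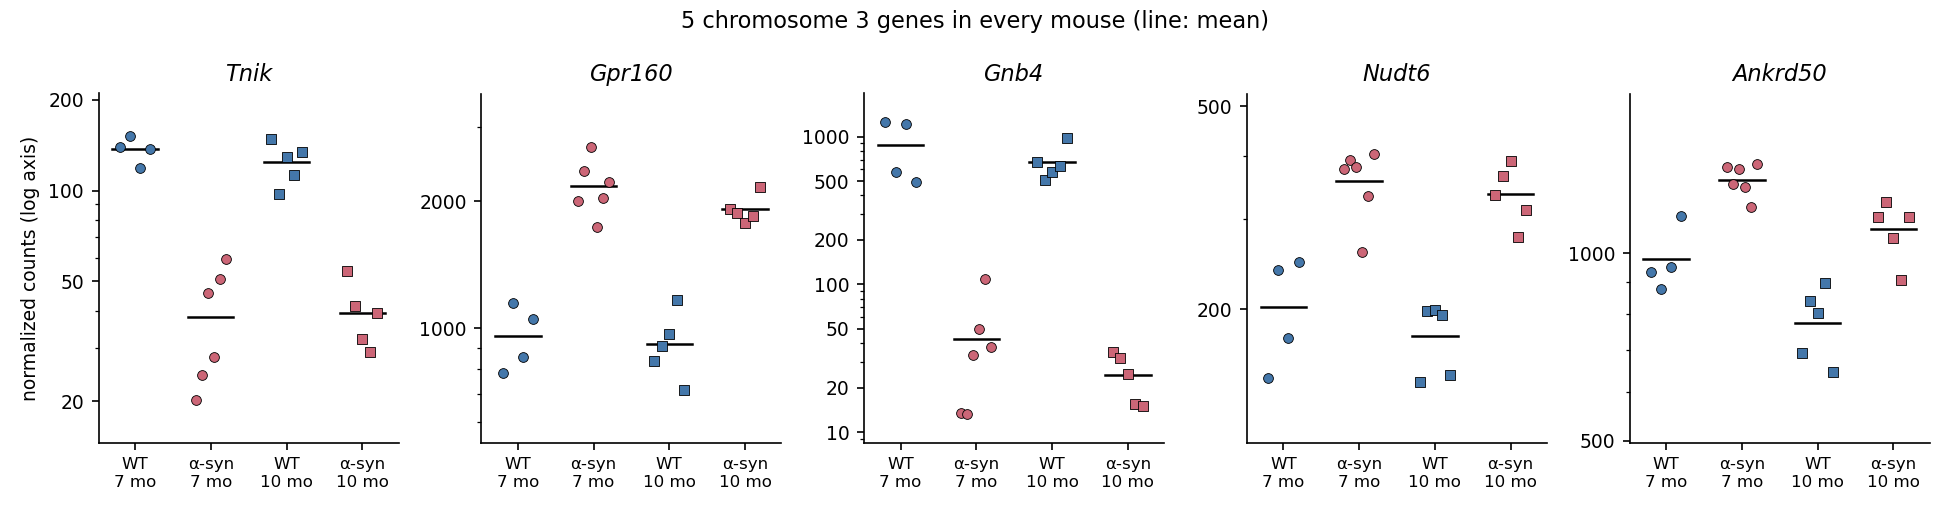
Normalized counts on a log axis for Tnik, Gpr160, Gnb4, Nudt6 and Ankrd50, with 1 point per mouse (blue wild-type, red α-synuclein; circles 7 months, squares 10 months) and a line at the mean of each group. Gnb4 lies between 13.3 and 109 in α-synuclein mice and between 494 and 1248 in wild-type mice, Tnik is also lower, and Gpr160, Nudt6 and Ankrd50 are higher with no overlap at either age.

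Compared per length of exon, Gpr160 was the most abundant and Tnik the least abundant of the 5 in wild-type mice. At 10 months the wild-type levels per kb were 225 ± 41.6 for Gpr160, 109 ± 17.6 for Nudt6, 94.5 ± 12.8 for Ankrd50, 55.1 ± 14.6 for Gnb4 and 6.67 ± 1.05 for Tnik (SD, n = 5). Nudt6 and Ankrd50 lay within their spread of each other. In α-synuclein mice of that age Gnb4, at 1.99 ± 0.74 per kb, lay within its spread of Tnik, at 2.11 ± 0.52 per kb.

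The share of genes that passed the genotype test (limma, Benjamini-Hochberg adjusted p under 0.05) was 4.93% of 13887 genes at 7 months and 7.67% of 13627 genes at 10 months, and 0.734% of 13484 genes passed at both. By direction, 2.23% were higher and 2.7% lower in α-synuclein mice at 7 months, 3.88% and 3.79% at 10 months, and 0.489% passed at both ages in the same direction. Groups did not overlap for 7.53% of genes at 7 months and 7.27% at 10 months, and 0.43% did not overlap in the same direction at both ages. Since the 5 genes were picked from these calls, nothing is read from their own count. The interval held 78 genes of the table, of which 9 had no read in any mouse and 47 were tested at both ages. Within it 10 of 48 genes (20.8%) passed at 7 months and 10 of 47 (21.3%) at 10 months. Without the 5 genes, the shares were 5 of 43 (11.6%) and 5 of 42 (11.9%), and none of the 42 passed at both ages. That none did follows from the choice, which took the genes that passed at both ages. In the flanks of equal length, 1 of 16 genes (6.25%) between 17 and 28 Mb and 0 of 15 between 39 and 50 Mb passed at 7 months, and 0 of 15 on either side at 10 months. On the rest of chromosome 3 the shares were 4.95% and 6.2%. By non-overlap of the groups at 7 months, the flank between 17 and 28 Mb had 3 of 16 genes (18.8%). The flank between 39 and 50 Mb had 0 of 15, and the interval without the 5 genes 5 of 43 (11.6%). At 10 months these counts were 0 of 15, 1 of 15 (6.67%) and 5 of 42 (11.9%). The interval was drawn around genes already known to differ, so these shares describe it and were not tested.

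By the choice of the 5 genes, every other gene that passed in the interval by limma did so at a single age. By DESeq2 on the recovered reads Zmat3 passed at both ages (adjusted p = 0.0470 at 7 months and 0.00121 at 10 months, DESeq2). At 7 months Bbs12 (log2 fold change 0.99 ± 0.20), which helps to assemble the ciliary BBSome, and D3Ertd254e (0.44 ± 0.10) rose. Sox2 (−2.18 ± 0.51), a transcription factor of neural stem cells and glia, Gm5148 (−0.59 ± 0.11) and Dnajc19 (−0.36 ± 0.10), a gene of mitochondrial protein import, fell. At 10 months all 5 rose, namely Fgf2 (2.89 ± 0.74), Cetn4 (2.09 ± 0.28), Eif5a2 (0.62 ± 0.11), a translation factor, Zmat3 (0.55 ± 0.12), an RNA-binding target of p53, and Bbs7 (0.53 ± 0.11), a BBSome subunit. Adjusted p-values from limma ran from 0.00489 for Gm5148 to 0.0416 for Dnajc19 at 7 months, and from 0.00106 for Cetn4 to 0.0340 for Fgf2 at 10 months. These calls leaned on single mice to different degrees. In fits that each left out 1 mouse of that age, the call held in all 10 for Bbs12, Gm5148, Eif5a2, Zmat3, Bbs7 and Cetn4. It was lost for D3Ertd254e without wild-type replicate 1 or 3, and for Sox2 without wild-type replicate 1, 2 or 3. For Fgf2 it was lost without α-synuclein replicate 1, 2, 3 or 4 or wild-type replicate 2 or 5, and for Dnajc19 it held only without α-synuclein replicate 5 or wild-type replicate 4. These 10 genes are named because the interval held them, after their values were seen.

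**Figure D2:**
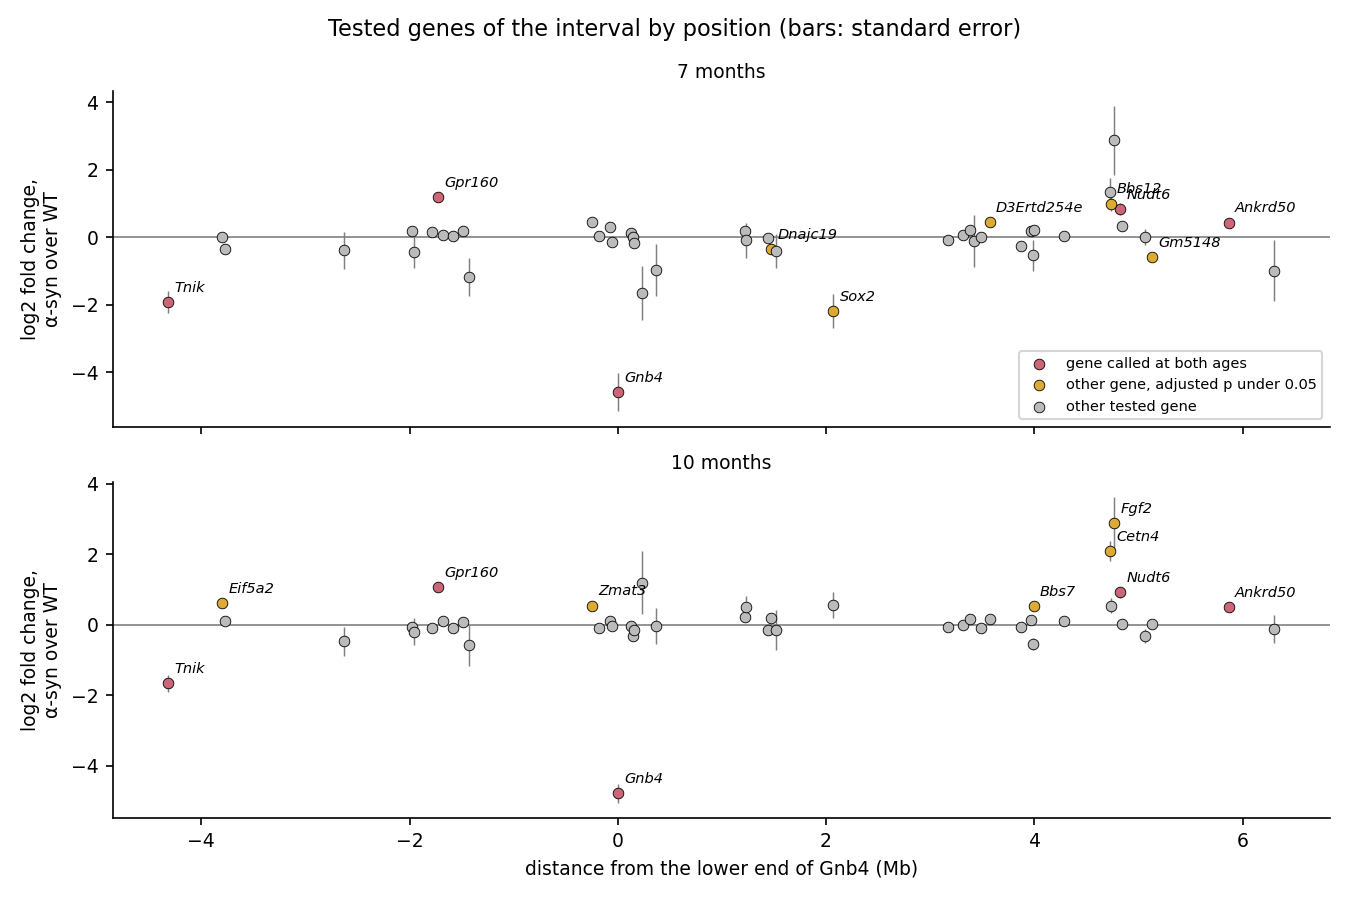
Log2 fold change of α-synuclein over wild-type mice (points, with standard errors) for every tested gene of the interval at 7 months (top) and 10 months (bottom), by distance in Mb from the lower end of Gnb4. The 5 red genes are spread along the interval, with Gnb4 at −4.58 and −4.78 and Gpr160 at 1.18 and 1.07, and some other genes (Fgf2, Cetn4, and Sox2 at 7 months) also lie far from 0.

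The nearest tested genes on either side were Pld1 and Eif5a2 for Tnik, Sec62 and Phc3 for Gpr160, Mfn1 and Actl6a for Gnb4, and Gm5148 and Fat4 for Ankrd50. Of these 8 genes Eif5a2 passed at 10 months, Gm5148 passed at 7 months and the other six passed at neither age. Mfn1, a gene of mitochondrial fusion that ends 1.09 kb from Gnb4, had log2 fold changes of −0.13 ± 0.07 and −0.03 ± 0.07. Phc3, a Polycomb gene 2.18 kb from Gpr160, had 0.08 ± 0.09 and 0.12 ± 0.13. The large Gnb4 difference was thus not seen in the gene beside it. Pld1, which starts just before 28 Mb, had 0.09 ± 0.06 and 0.05 ± 0.06, while Tnik, the first of the 5 inside the interval, had −1.92 and −1.66. Of the genes that missed the choice narrowly, Zmat3 had 0.44 and 0.55, close to the 0.43 and 0.50 of Ankrd50, and Cetn4 had 1.34 and 2.09. No gene before 28 Mb passed at both ages on this chromosome. The nearest such gene after 39 Mb was B3galnt1, 30.6 Mb away, with 0.38 ± 0.08 and 0.40 ± 0.10.

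Around Nudt6 several genes were higher in α-synuclein mice. Cetn4, which encodes a centrin of basal bodies, and Bbs12 start next to each other on opposite strands, and their promoter windows share 207 bases. Cetn4 had 88.5, 127, 127, 136, 169 and 110.3 normalized counts in the 7-month α-synuclein mice and 26.1, 93.6, 21.3 and 103 in the wild-type mice. At 10 months it had 167, 192, 119, 142 and 141 against 30.7, 47.8, 41.5, 45.7 and 17.3. The groups overlapped at 7 months, where wild-type replicates 2 and 4 stood high, and did not overlap at 10 months.

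Fgf2 showed a similar layout at lower levels. At 7 months it had 40.3, 90.9, 95.4, 135, 92.4 and 90.9 normalized counts in α-synuclein mice and 7.19, 30.2, 0 and 77.7 in wild-type mice. At 10 months it had 56.9, 84.6, 81.3, 61.4 and 26.1 against 0, 9.85, 25.4, 17.5 and 4.84. Wild-type replicate 4 was the highest of the 7-month wild-type mice and lay within the range of the α-synuclein mice. Without that mouse Cetn4, Fgf2 and Zmat3 passed at both ages and the count of genes in the interval that did so was 8. The 7-month adjusted p of all mice was 0.0786 for Cetn4, 0.145 for Fgf2 and 0.0664 for Zmat3 (limma). Because Nudt6 and Fgf2 overlap on opposite strands, part of the reads of either could belong to the other.

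Bbs12 was higher at 7 months, with 261, 192, 266, 235, 173 and 199.95 normalized counts against 86.3, 137, 98.0 and 123. At 10 months the values were 234, 193, 241, 164 and 177 against 99.5, 160.4, 111, 212 and 124. Only the younger groups stood clear of each other, and the adjusted p was 0.00904 at 7 months and 0.133 at 10 months (limma). Without wild-type replicate 4 at 10 months, the highest of its group, Bbs12 passed at both ages. The difference between these genotype effects was not past the test (interaction −0.44 ± 0.29, adjusted p = 0.394, limma). Spata5, the other gene overlapping Nudt6, had log2 fold changes of 0.32 ± 0.10 and 0.02 ± 0.11 and passed at neither age.

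**Figure D3:**
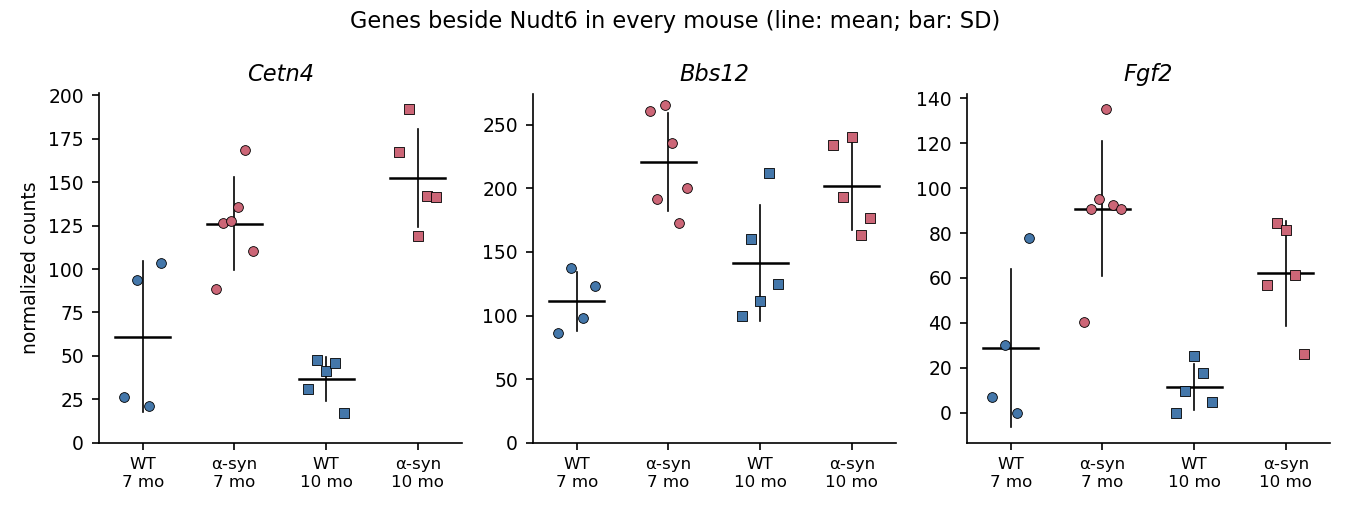
Normalized counts of Cetn4, Bbs12 and Fgf2, with 1 point per mouse, a line at the group mean and a bar of 1 SD. Cetn4 lies between 119 and 192 in α-synuclein mice and between 17.3 and 47.8 in wild-type mice at 10 months, while 2 of the 4 wild-type mice at 7 months reach 93.6 and 103.

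Age was a contrast the choice had not used, and none of the 5 genes passed the test for age in either genotype. For this the recovered reads were normalized over all 20 mice together. Over all genes 9.97% of 14452 passed for age in wild-type mice and 0.906% in α-synuclein mice. In wild-type mice the log2 difference of 10 over 7 months was −0.20 ± 0.48 for Gnb4 (95% interval −1.19 to 0.80), −0.05 ± 0.29 for Tnik (−0.65 to 0.55), 0.04 ± 0.13 for Gpr160 (−0.24 to 0.31) and −0.07 ± 0.17 for Nudt6 (−0.43 to 0.29). Their adjusted p-values (limma) lay between 0.840 and 0.946. Ankrd50 had −0.24 ± 0.10 (−0.45 to −0.02) and an adjusted p of 0.153. With the values as deposited, normalized within each age, Ankrd50 had −0.34 and an adjusted p of 0.0296, so its call depends on the scaling. In α-synuclein mice the differences were −0.40 ± 0.43 for Gnb4, 0.22 ± 0.26 for Tnik, −0.06 ± 0.12 for Gpr160, 0.02 ± 0.16 for Nudt6 and −0.16 ± 0.09 for Ankrd50, with adjusted p-values from 0.480 to 0.971 (limma). The intervals for Gnb4 and Tnik are wide, so a moderate change with age was not detectable with these mice.

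The genotype differences of the 5 genes were close at both ages. The effect at 10 months minus that at 7 months was −0.20 ± 0.64 for Gnb4, 0.27 ± 0.39 for Tnik, −0.10 ± 0.18 for Gpr160, 0.10 ± 0.23 for Nudt6 and 0.07 ± 0.14 for Ankrd50 on the log2 scale. Each was smaller than its standard error. Being built from the contrasts of the choice, these are given with no test, and 6.45% of all genes passed this interaction. On the values normalized over all mice, the group means of Gnb4 ran from 853 and 699.8 in wild-type mice of 7 and 10 months down to 41.2 and 25.3 in α-synuclein mice of 7 and 10 months. Tnik had 132 and 129 in wild-type mice and 36.7 and 40.7 in α-synuclein mice of those ages. The other three genes had the α-synuclein groups on top, with 2091 and 1987 against 927 and 953 for Gpr160, 344 and 348 against 195 and 183 for Nudt6, and 1264 and 1132 against 944 and 802 for Ankrd50. Within a genotype the neighbouring ages did not pass the test for any of them.

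Correlation between genes among mice of the same group was not itself used by the choice. The genotype test behind the choice did use the spread of each gene within groups. Gnb4, Gpr160 and Nudt6 were related to each other in wild-type mice, whereas Tnik had r between −0.257 and 0.0234 with them there. Log2 values were centred on the mean of each group, which removes genotype and age. Over 20 mice the median absolute Pearson correlation of the 10 pairs was 0.44, against 0.21 between these genes and all other tested genes. In the 9 wild-type mice the medians were 0.606 and 0.304, and in the 11 α-synuclein mice 0.302 and 0.283. In α-synuclein mice the medians were thus close to each other. The points share a library, so depth and composition can move both genes of a pair. These correlations are descriptions of few mice.

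Gnb4 and Nudt6 moved in opposite directions among wild-type mice, with r = −0.888 and rho = −0.917. In these 9 mice 1.07% of tested genes were related to Gnb4 as strongly. Over all 20 mice r was −0.44, and 20.3% of tested genes were related to Gnb4 as strongly. At 7 months the wild-type mice with 1248 and 1218 counts of Gnb4 had 147 and 176 of Nudt6, while those with 576 and 494 had 239 and 248. At 10 months the mice with 979 and 678 counts of Gnb4 had 149 and 144 of Nudt6, and the other three had between 195 and 199. Higher Gnb4 thus went with lower Nudt6 at both ages.

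Cetn4 followed Gnb4 still more closely. Its correlation with Gnb4 in wild-type mice was r = −0.981 (rho = −0.933), rank 2 among 14452 tested genes by strength, and stayed at −0.979 without the 2 mice farthest from the median of Gnb4. It lay between −0.991 and −0.976 when each wild-type mouse was left out in turn. Gpr160 was related to Gnb4 with r = −0.764 and to Nudt6 with r = 0.844. Ankrd50 was related less strongly to Gnb4 (r = −0.537) and to Nudt6 (r = 0.62). Tnik stood outside this pattern, with r = 0.0234 to Gnb4 and −0.257 to Nudt6. The signs among Gnb4, Gpr160, Nudt6 and Cetn4 in wild-type mice were those of the genotype difference. Other genes of the interval went the other way. Mecom (r = −0.741 with Gnb4) had log2 fold changes of −0.39 and −0.47, and Exosc9 (r = 0.724) had 0.18 and 0.15, with neither gene passing. Over all 20 mice Gnb4 and Cetn4 had r = −0.206, and 57.2% of tested genes were related to Gnb4 as strongly. The cause of these relations was not tested.

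Within the interval 13 of 48 genes (27.1%) had an absolute correlation of at least 0.7 with Gnb4 in wild-type mice, against 10.3% of 14451 tested genes. Besides Gpr160, Nudt6, Cetn4 and Fgf2 (−0.703) they included Zmat3 (−0.918), Ndufb5 (0.86), a subunit of respiratory complex I, and Rpl22l1 (0.80), a ribosomal protein gene. In the 11 α-synuclein mice, where Gnb4 was low, its correlation with Nudt6 was −0.224 and with Gpr160 −0.30. With Cetn4 it was 0.699, opposite in sign to that in wild-type mice, and with Tnik 0.691. No difference between the genotypes in these correlations was tested.

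**Figure D4:**
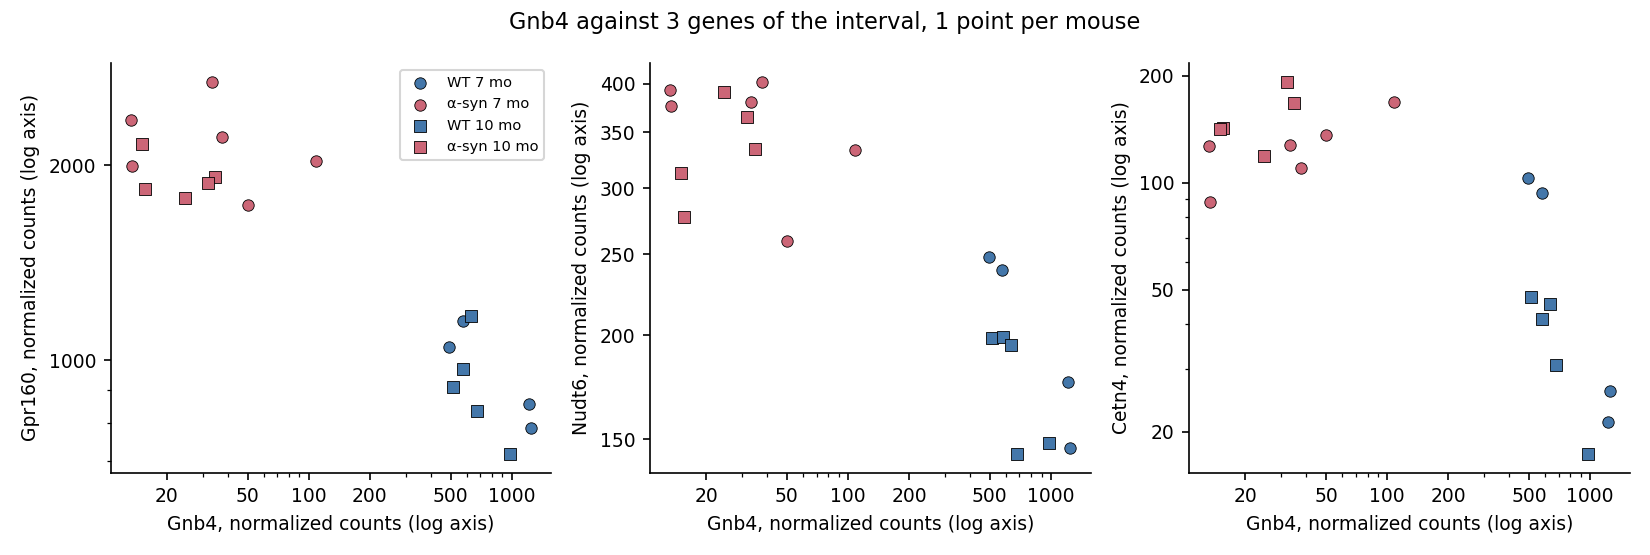
Gnb4 (horizontal, log axis) against Gpr160, Nudt6 and Cetn4 (vertical, log axes), in normalized counts with 1 point per mouse. Among the blue wild-type points each gene falls as Gnb4 goes from 494 to 1248 (within-group r of −0.764, −0.888 and −0.981). The red α-synuclein points lie at low Gnb4 and at higher Gpr160 and Nudt6. For Cetn4 the genotypes overlap at 7 months, where an α-synuclein mouse at 88.5 lies below wild-type mice at 93.6 and 103.

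Over the whole table, the genes most like each of the 5 within groups (Pearson correlation, 20 mice, 14452 genes) were mostly on other chromosomes. For Gnb4 they were Creb3l1 (0.874), Sri (0.872) and Rpe (0.848), and for Tnik Mpv17l (0.876), Wbp4 (0.842) and Gspt1 (0.824). Gpr160 was close to Tomm6os (0.766) and Cdkl4 (0.755), and Nudt6 to Smad6 (0.823), Mepce (0.775) and Gpsm1 (0.768). Ankrd50 was nearest to Fam168a (0.851), 4931440P22Rik (0.811), which lies on chromosome 3 outside the interval, and Fancb (0.798).

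The lists of partners and relatives of the 5 genes differed in how many genes passed, to be read beside the 4.93% of all genes at 7 months and 7.67% at 10 months. Of the G protein β and γ subunits other than Gnb4, 10 were tested at 7 months and 11 at 10 months. All 10 were lower at 7 months (median log2 fold change −0.16) and Gng10 (−0.48 ± 0.08) and Gngt2 (−0.37 ± 0.08) passed, while at 10 months 6 were higher and Gng3 (1.96 ± 0.56) passed. Of 13 α subunits, Gnao1 (−1.51 ± 0.24), which is abundant in neurons, and Gnas (−0.25 ± 0.07) fell at 7 months and none passed at 10 months. No other subunit passed at both ages. Of 27 microglial G protein-coupled receptors, 6 rose and 1 fell at 7 months, among them C3ar1 (0.68 ± 0.14), the receptor for complement C3a, and Gpr34 (0.53 ± 0.09), a lysophosphatidylserine receptor. At 10 months 2 rose and 2 fell, C5ar1 (−0.66 ± 0.14) among the latter. No receptor passed at both ages as Gpr160 did by its choice.

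Of the 6 other MAP4K kinases Map4k4 (−0.34 ± 0.09) fell at 7 months and none passed at 10 months. Of 15 partners of Tnik and genes of Wnt transcription, Lef1 (−1.43 ± 0.36) fell at 7 months and Apc (0.38 ± 0.09) rose at 10 months. Of the other Nudix hydrolases 0 of 19 and 0 of 18 passed. Of 22 listed genes of SNX27, retromer and WASH recycling, 15 were matched by symbol and tested. Of those none passed at 7 months and Snx5 (0.25 ± 0.07) rose at 10 months. The unmatched genes of that list were not tested. Of Fgf2 and its receptors 5 were tested, and Fgf2 at 10 months was the one that passed. The medians of these lists lay between −0.23 and 0.26 over both ages, and those of all tested genes were 0.00.

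RNA of other cells in the samples differed between genotypes too. Of 19 neuron markers tested at 7 months 16 were lower and 8 fell, and the sum of 20 markers was 2309 to 2861 normalized counts in α-synuclein mice and 3638 to 4427 in wild-type mice. At 10 months 11 of 17 were higher, 1 (Camk2a) fell, and the sums overlapped (2130.2 to 2991 against 2320.2 to 2775). Tnik, which neurons also express, was 3.79-fold and 3.15-fold lower at those ages. With the neuron marker score as a covariate, the 10-month log2 fold change was −1.64 for Tnik, −4.86 for Gnb4, 1.08 for Gpr160, 0.88 for Nudt6 and 0.50 for Ankrd50. At 7 months the same covariate gave −2.43 for Tnik, −3.42 for Gnb4, 0.75 for Gpr160, 0.08 for Nudt6 and 0.25 for Ankrd50, and none of the 5 was called. The score did not overlap between the genotypes at that age, so the score and genotype cannot be told apart there. In bulk samples fewer cells of a type and less RNA per cell cannot be told apart.

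**Figure D5:**
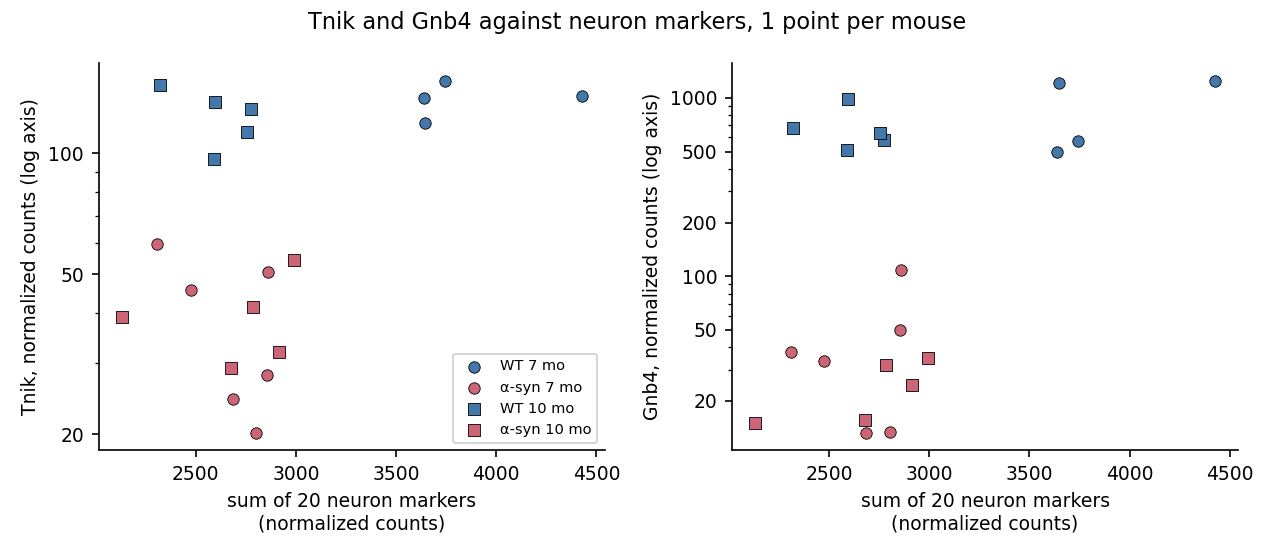
Tnik (left) and Gnb4 (right) in normalized counts on a log axis, against the summed normalized counts of 20 neuron markers, with 1 point per mouse. The sums of the 10-month groups overlap (2130.2 to 2991 in α-synuclein and 2320.2 to 2775 in wild-type mice), and both genes are lower in every α-synuclein mouse.

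Some of the other marker lists moved alike at both ages and some did not. All 8 monocyte and neutrophil markers were lower at 7 and at 10 months, as were all 5 and all 4 tested lymphocyte markers. Of the oligodendrocyte markers 8 of 9 and 6 of 8 were lower. Astrocyte markers were mostly lower at 7 months, and all 12 were higher at 10 months. At 7 months 10 of 12 astrocyte markers were lower (5 fell and 1 rose), 3 of 9 oligodendrocyte markers fell, and 3 of 10 endothelial and mural markers fell. The oligodendrocyte sum was 7882 to 10249 against 12813 to 18304 and the endothelial sum 2906 to 4915 against 5300.1 to 6481. The astrocyte sums overlapped (9792 to 12564 against 9484 to 12666). At 10 months the astrocyte sums (10464 to 11508 against 9342 to 11306, 1 marker rose), the oligodendrocyte sums (7622 to 10808 against 8818 to 15219.7) and the endothelial sums (4167 to 9312 against 4767 to 9671) overlapped. At that age 4 of 7 border macrophage markers fell, with sums of 18879 to 24280.3 against 25613 to 35529. The lymphocyte sum was 92.5 to 257 against 288 to 614, and 2 of 4 markers fell. The sums of monocytes and neutrophils were 66738 to 173322 against 142171 to 347313, and 2 of 8 markers fell. At 7 months the border macrophage sums (21714 to 36257 against 22383 to 31544), the monocyte and neutrophil sums (43763 to 394717 against 71245 to 259641) and the lymphocyte sums (114 to 494 against 329 to 768) overlapped with no marker passing. No precursor marker of oligodendrocytes passed at either age, with sums of 86.5 to 158 against 93.6 to 161 and of 93.3 to 183 against 79.4 to 184. Of 12 microglial markers, none passed at 7 months and 4 rose at 10 months. No marker matched by symbol, tested or not, was at 0 in every mouse of an age. The part of these cells in the differences of the 5 genes was not tested.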

How the data were processed

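The 5 genes, the interval and the gene lists were chosen with earlier results of these data known. The authors trimmed the reads (Trim Galore 0.6.7), mapped them to mm10 (HISAT2 2.2.1) and counted them per gene (featureCounts). The deposited signal values are counts per gene scaled by the authors with DESeq2 size factors, separately for each age. Annotation release, strand and multi-mapping settings are not given in the sources used here. Whole reads were recovered from the steps of the values (tolerance 0.02). In α-synuclein replicate 5 at 10 months the step is so close to 1 that whole multiples are hard to tell apart.

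Genotypes were compared within an age by limma 3.58.1 (R 4.3.3; trend, robust) on log2(value + 1). Tested genes had values of 10 or more in 4 mice (7 months) or 5 mice (10 months). Age and interaction used 1 fit of 4 groups on reads normalized over 20 mice (value of 10 in at least 4 mice). p-values were adjusted by Benjamini-Hochberg, with a cutoff of 0.05. A fold change on this scale understates the change of low genes. The fits were tested on simulated data. Samples were grouped by their labels. Nothing says that mice with equal numbers belong together, and they did not deviate together. Pairs of mice in a group differed by a chi-square of at least 24.7 per gene. Alternatives were pseudocounts, filters, TMM scaling, edgeR 4.0.16, DESeq2 1.42.0, a replicate block, a neuron marker covariate and leaving out each mouse.

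Named genes were the 5 genes, their nearest or overlapping tested genes, the nearest gene outside the interval called at both ages, the 3 genes most like each, up to 5 per list and the label check Thy1. Some results of this rule are not reported here. Cetn4, Bbs12, other called genes of the interval and genes correlated with Gnb4 were named after their values were seen. Positions are from GENCODE M21, which with RefSeq placed 95.49% of the genes. The 8 lists of related genes and 9 marker lists were counted, with no set test. Methylation data were not analysed here.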

Additional observations from a re-analysis of the deposited data

Results flagged for a closer look

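Of 68 groups of values (17 genes in 4 groups of mice), 2 held a mouse far from the others, and chance alone flags about 1 in 20 groups. Fgf2 in α-synuclein replicate 1 at 7 months, at 40.3 normalized counts, lay below the other five mice by 0.67 of the range of the group. Spata5 in wild-type replicate 2 at 7 months, at 932 normalized counts, lay above the other three by 0.83 of the range.

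The interaction test over all genes (limma, adjusted p) was passed by 4 named genes of the interval other than the 5, and by 6.45% of all genes. These 4 genes were named after their values were seen, and each had passed the genotype test at a single age. The interaction is built from those same contrasts, so its p-values for them are a description and add no support. The effect at 10 months minus that at 7 months was 2.75 ± 0.65 on the log2 scale for Sox2 (adjusted p = 0.0135), 0.628 ± 0.145 for Eif5a2 (0.0117), 0.627 ± 0.159 for Gm5148 (0.0197) and 0.568 ± 0.138 for Dnajc19 (0.0155). Sox2 had 4.77 to 34.5 normalized counts in α-synuclein mice and 56.4 to 117 in wild-type mice at 7 months, and overlapping ranges at 10 months (25.5 to 48.0 against 12.1 to 47.0). Astrocytes also express Sox2. Of 12 astrocyte markers 10 were lower at 7 months (5 fell and 1 rose), and all 12 were higher at 10 months (1 rose). The sums of these markers overlapped between genotypes at both ages, and their part in the Sox2 difference was not tested.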

How the results depend on the processing

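All 5 genes kept the direction of their genotype difference under every alternative run at both ages. At 10 months all 5 stayed past the threshold in every alternative. The 5 genes were chosen from these same contrasts and mice, so this describes the settings and adds no support for the differences. With the neuron marker score as a covariate at 7 months the log2 fold changes were −2.43 for Tnik, 0.749 for Gpr160, −3.42 for Gnb4, 0.0790 for Nudt6 and 0.255 for Ankrd50, and none passed. There the score did not overlap between the genotypes. Under that covariate the counts fell to 1 of all genes and 0 in the interval at 7 months, 690 of all genes at 10 months and 0 in the interval at both ages. DESeq2 called 1158 genes at 7 months and 1695 at 10 months, against 684 and 1045 by limma. In the interval it called 6 genes at both ages, the 5 genes and Zmat3.

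Equal replicate numbers did not pair the mice (correlations of deviations −0.134 to 0.0324 at 7 months and −0.0505 to 0.0995 at 10 months). With a replicate block 414 genes were called at 7 months, 6 in the interval at 7 months and 3 in the interval at both ages, since Nudt6 and Ankrd50 were no longer called at 7 months.

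Leaving out each mouse in turn gave 5 to 13 genes in the interval and 280 to 860 over all genes at 7 months, 497 to 1235 over all genes at 10 months, and 3 to 8 in the interval at both ages. Without wild-type replicate 1 at 7 months Nudt6 and Ankrd50 were not called, without replicate 2 Ankrd50 was not and Cetn4 was, and without replicate 3 Nudt6 was not, where the interval held 3, 5 and 4 genes called at both ages. Without wild-type replicate 4 of that age it held 8. The age difference of Ankrd50 in wild-type mice was −0.340 with the values as deposited (adjusted p = 0.0296, limma), where it passed the threshold. The causes of these changes were not tested. Gnb4 in α-synuclein mice rested on 12 to 107 reads per mouse, and Fgf2 in wild-type mice on 0 to 73, which limits the precision of their folds.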
